A study of Mus musculus with 12 samples.

Results

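Chromatin that opened when mouse embryoid bodies were patterned towards spinal motor neurons, and that was in the lists of accessible chromatin at day 4 whether or not a Hox factor was induced, comprised 4563 accessible domains. Each was a domain of the day 2 progenitor list at least 150 bp wide on chromosomes 1 to 19, X or Y that overlapped no domain of the embryoid bodies before patterning and at least 1 domain in each of the 4 day 4 lists, with 1 bp counting as overlap. They made up 11.0% of the 41544 progenitor domains of that width, and the 6 lists together held 482514 domains on these chromosomes. The domains were chosen by the coordinates in these lists and by their width in progenitors, so that their absence before patterning and their presence at day 4 are given below as a description and were not tested.

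Accessibility was measured by ATAC-seq in 12 samples of mouse embryonic stem cell derivatives, with 2 samples in each of 6 groups and 1 list of domains per group made from both. All cells were of the Ainv15 background. EBs were Ainv15(iCre) embryoid bodies before patterning, and progenitors were the same line after 2 days of retinoic acid (RA, 1 µM) and the Smoothened agonist SAG (0.5 µM). The day 4 groups had 4 days of RA and SAG. The lines iHoxc6, iHoxc9 and iHoxc10, labelled Ainv15(iFlag.Hoxc6), Ainv15(iFlag.Hoxc9) and Ainv15(iFlag.Hoxc10), received 3 µg/mL doxycycline (Dox) for the last 48 h. The no Dox group was the Ainv15(iFlag.Hoxc6) line without Dox, so that line and stage cannot be told apart between day 2 and any day 4 group. By the methods of the study, each line carried its Dox-inducible transgene as a single copy at the HPRT locus.

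RA and Hedgehog are the caudalising and ventralising signals of the neural tube. RA acts through RAR/RXR receptors on direct repeats of a 6-base site and activates the Hox genes of low paralog number, while Hedgehog acts through GLI factors and sets up the ventral progenitor domains that express Olig2, Nkx6-1 and Nkx2-2. The Hox proteins bind DNA with TALE cofactors of the PBX and MEIS families, and SOX and POU factors mark neural progenitors. Enhancers opened by such signals typically lie far from promoters, and they may close again as cells leave the progenitor state or persist into neurons.

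Sequences are shown for 9 of these domains next to genes of these pathways, because they carry the motifs on which the comparisons below turn. They were the first 9 reported here, in the order of a list of 33 pathway genes, whose domain held a match to a GLI (ACCACCCA), RFX (GTTGCCATG), POU octamer (ATGCNAAT) or PBX-Hox (TGATTNAT) motif. Each is a window of 150 bases from GRCm38 (mm10), on the forward strand, and capitals mark matches on either strand to those motifs or to SOX (ACAANG), MEIS (TGACAG), E-box (CAGCTG, or with A at the fourth base) and RAR (AGGTCA, or with T at the third base) motifs. The Rarb window (chr14:16733708-16733857, intron of Rarb) held a PBX-Hox match. The Rara window (chr11:98968800-98968949, intron of Rara) held 1 RFX, 1 PBX-Hox, 1 MEIS and 2 SOX matches. The Hoxb3 window (chr11:96323136-96323285, intergenic) held 1 PBX-Hox, 1 SOX and 1 RAR match. The Meis2 window (chr2:116063875-116064024, intron) and the Pax6 window (chr2:105689896-105690045, intron) each held 1 PBX-Hox and 1 SOX match. The Ptch1 window (chr13:63554718-63554867, intron) held 1 POU octamer and 1 CAGCTG match. The Olig2 window (chr16:91192749-91192898, intergenic), the Nkx2-2 window (chr2:147188180-147188329, intron) and the Foxa2 window (chr2:148023587-148023736, in an intron of 9030622O22Rik) each held 1 GLI match, with 1, 2 and 0 SOX matches.
Rarb: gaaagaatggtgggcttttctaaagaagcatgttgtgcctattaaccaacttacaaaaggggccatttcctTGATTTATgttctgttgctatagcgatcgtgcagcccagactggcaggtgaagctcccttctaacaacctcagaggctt
Rara: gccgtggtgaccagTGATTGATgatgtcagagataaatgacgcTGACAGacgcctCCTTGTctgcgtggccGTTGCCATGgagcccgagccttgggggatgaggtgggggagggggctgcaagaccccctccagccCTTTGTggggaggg
Hoxb3: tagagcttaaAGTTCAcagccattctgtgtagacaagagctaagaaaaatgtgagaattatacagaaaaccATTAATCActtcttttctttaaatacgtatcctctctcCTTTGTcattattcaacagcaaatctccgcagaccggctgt
Meis2: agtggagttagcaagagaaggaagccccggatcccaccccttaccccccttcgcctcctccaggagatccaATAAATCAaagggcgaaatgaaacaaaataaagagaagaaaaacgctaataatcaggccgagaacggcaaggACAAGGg
Ptch1: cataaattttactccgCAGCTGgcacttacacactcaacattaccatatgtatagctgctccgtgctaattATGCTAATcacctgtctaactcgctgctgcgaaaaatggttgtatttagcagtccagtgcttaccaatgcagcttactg
Olig2: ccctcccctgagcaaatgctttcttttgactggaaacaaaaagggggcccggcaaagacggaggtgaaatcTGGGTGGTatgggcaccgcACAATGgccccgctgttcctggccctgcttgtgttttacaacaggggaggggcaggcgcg
Nkx2-2: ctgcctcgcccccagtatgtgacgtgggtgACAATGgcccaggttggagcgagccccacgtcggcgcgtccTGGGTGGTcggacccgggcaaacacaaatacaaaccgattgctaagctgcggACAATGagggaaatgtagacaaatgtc
Foxa2: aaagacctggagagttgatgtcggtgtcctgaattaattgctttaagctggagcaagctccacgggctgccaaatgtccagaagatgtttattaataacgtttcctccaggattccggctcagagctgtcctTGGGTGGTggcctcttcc
Pax6: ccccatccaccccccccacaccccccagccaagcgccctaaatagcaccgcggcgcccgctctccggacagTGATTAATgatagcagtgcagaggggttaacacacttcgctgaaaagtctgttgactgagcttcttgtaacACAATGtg

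A match describes these letters and does not show that a factor was bound there. Across all 4563 domains, 49 held a GLI match, 119 an RFX match, 147 a POU octamer and 315 a PBX-Hox match in the central 150 bp. The comparison of these shares with other domains follows the account of how the domains were kept.

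Of the 41544 progenitor domains, 15419 (37.1%) were new relative to EBs. The no Dox list held 84.0% of all 41544, iHoxc6 83.0%, iHoxc9 68.0%, iHoxc10 70.1%, and all 4 lists together 60.8%. Among the new domains, 4563 or 29.6% (28.9 to 30.3) were in all 4 day 4 lists, against 79.2% (78.7 to 79.7) of the 26125 progenitor domains that were also in EBs. Another 3340 new domains (21.7%) were in no day 4 list, and 2342, 2633 and 2541 were in 1, 2 and 3 lists. Intervals in brackets are Wilson intervals at 95% and cover the counting of domains alone. With 1 list per group there was no replicate error, no test across samples was possible, and read depth is unknown. In bulk cells, fewer cells with an open site and less opening per cell cannot be told apart.

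Width went with keeping in both classes of domains. Of new domains 150 to 199 bp wide 15.6% were in all 4 lists, of those of 200 to 299 bp 20.1%, of those of 300 to 499 bp 33.5% and of those of 500 bp or more 56.5%. The domains also in EBs gave 52.4%, 49.8%, 71.1% and 95.3% in the same classes, so the new domains were kept less often at every width. Location went with keeping much less for the new domains. At promoters 33.6% (29.9 to 37.4) were kept in all 4 lists, in exons 28.0%, in introns 30.4% and between genes 28.5%, whereas domains also in EBs ranged from 63.1% in introns to 92.5% (92.1 to 93.0) at promoters.

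**Figure D1:**
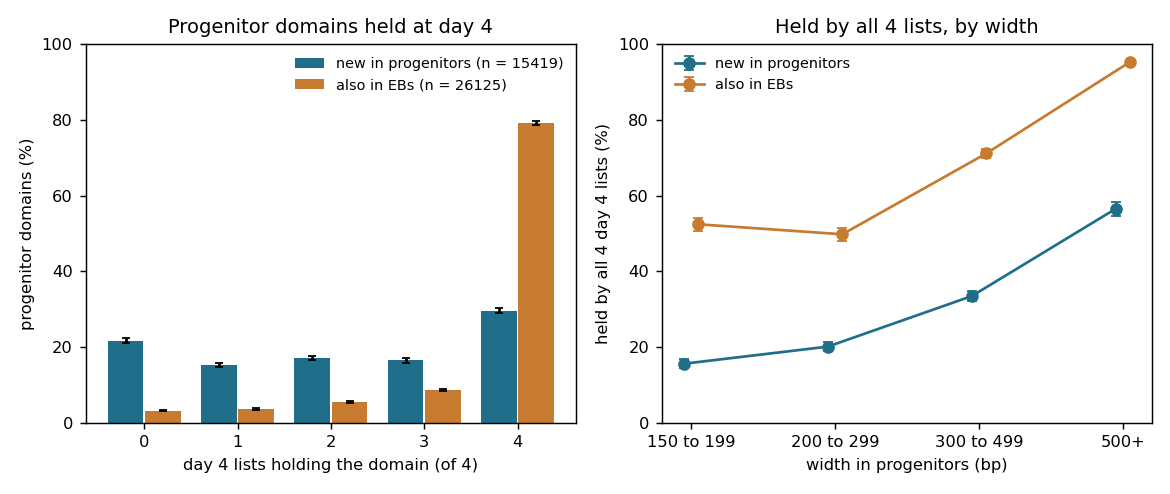
Left, the percentage of progenitor domains held by 0 to 4 of the day 4 lists. Right, the percentage held by all 4 by width in progenitors in bp. Bars and points are shares, and error bars are 95% Wilson intervals for counting. New domains spread over all numbers of lists, with 29.6% in all 4, while 79.2% of the domains also in EBs were in all 4.

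The list that most often ended the run of 4 was iHoxc9. Of the 2541 new domains in 3 lists, 1591 (62.6%) were missing only in iHoxc9, 755 (29.7%) only in iHoxc10, 105 (4.13%) only in iHoxc6 and 90 (3.54%) only without Dox. Of the 2256 domains in 3 lists that were also in EBs, 44.9% were missing only in iHoxc9 and 43.5% only in iHoxc10. The iHoxc9 list was also the shortest in length covered (17.8 Mb, against 29.7 Mb without Dox, 24.8 Mb in iHoxc6 and 20.1 Mb in iHoxc10). The part of this list length in the counts was not tested.

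The edges of the rule were not sharp. Among progenitor domains of 140 to 149 bp, 125 of 2012 (6.21%) met every other part of the rule, and among those of 150 to 159 bp 81 of 1301 (6.23%) did. The nearest EB domain lay 1 to 200 bp away for 111 of the 4563 (2.43%) and more than 10 kb away for 2101 (46.0%), with a median gap of 8.69 kb. In at least 1 day 4 list the overlap was 20 bp or less for 82 domains (1.80%) and 50 bp or less for 846 (18.5%).

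The kept new domains also differed in size among the lists. Their median width was 390 bp in progenitors (quartiles 266 and 570), 509 bp without Dox (332 and 729.5), 428 bp in iHoxc6 (285 and 620), 264 bp in iHoxc9 (139 and 423) and 357 bp in iHoxc10 (214 and 541). A day 4 width here is the summed width of the domains that overlap the member. Each such domain counts in full, also where it reaches past the member or spans several members. A larger day 4 width can therefore include neighbouring open sequence, and the part of this was not tested. Relative to the progenitor width the median was 1.17 without Dox, 1.03 for iHoxc6, 0.680 for iHoxc9 and 0.887 for iHoxc10. The kept domains also in EBs gave 1.10, 0.954, 0.772 and 0.865, so that the new domains exceeded them in 3 lists and fell below them in iHoxc9. Only the coordinates were available as a measure of openness, and the width of a domain also depends on depth and on the caller's settings.

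Compared directly with no Dox, most kept new domains were narrower in each induced list. Relative to the no Dox width the median was 0.892 for iHoxc6, 0.553 for iHoxc9 and 0.739 for iHoxc10, and 34.1%, 15.5% and 23.3% of the domains were wider than without Dox. The no Dox list was the widest of the 4 at 2403 domains (52.7%) and iHoxc9 the narrowest at 2643 (57.9%). In all 4 day 4 lists 755 domains were wider than in progenitors, and in none of them 1034 were. The no Dox list has a different column layout and may have been called with other settings, whose part in these ratios was not tested. Because the no Dox cells were of the iHoxc6 line, line and induction cannot be told apart for iHoxc9 and iHoxc10. In all induced lists, Dox and the induced factor cannot be told apart either.

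**Figure D2:**
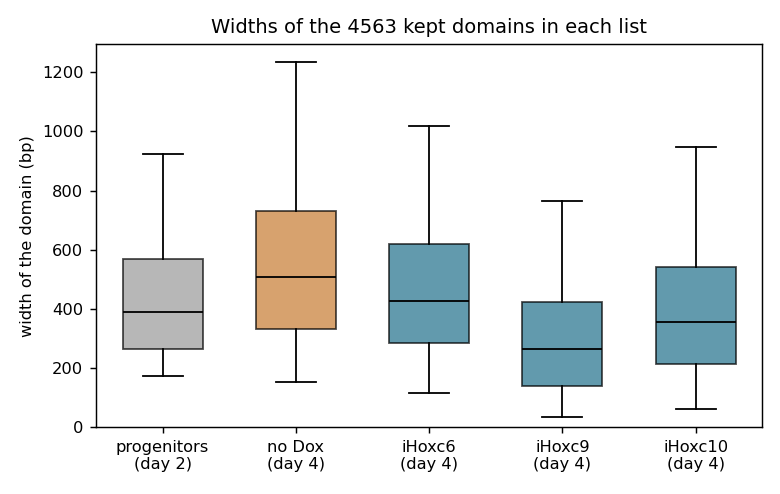
Width in bp of the 4563 kept new domains in the progenitor list and in the 4 day 4 lists. Boxes span the quartiles with the median as a line, and whiskers reach the 5th and 95th percentiles over domains, not over samples. The median was highest without Dox, at 509 bp, and lowest in iHoxc9, at 264 bp.

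The kept new domains were mostly distal. Only 206 of 4563 (4.51%, 3.95 to 5.16) came within 1 kb of the TSS of a protein-coding gene, whereas 33.4% of all progenitor domains and 59.3% of the kept domains also in EBs did. Introns held 2273 (49.8%), intergenic sequence 1932 (42.3%) and exons 152 (3.33%). The median distance to the nearest TSS was 66.5 kb, against 0.292 kb for the kept domains also in EBs and 65.6 kb for the new domains found in no day 4 list, and 39.9% lay more than 100 kb away. Median GC content in the central 150 bp was 46.7%, and was 62.7% and 44.0% in those other classes. By position and composition the kept new domains were closer to the new domains in no day 4 list than to the kept domains also in EBs.

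The few at promoters had a different composition. Their median GC content was 53.3% against 46.7% for the other 4357, and their median ratio to the progenitor width was 1.42 against 1.16 without Dox and 0.635 against 0.681 in iHoxc9. Genes of the pathway lists with such a promoter domain were Hoxb3 and Hoxd3 (Hox factors of the hindbrain and cervical cord), Meis2 and Tgif1 (TALE homeodomain factors), Nkx2-9 (a ventral homeodomain factor) and the Notch ligand Dll1. In all, 205 of 21827 protein-coding genes (0.939%) had one.

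The genes next to the kept new domains were examined through 13 lists of developmental genes, chosen with earlier results of these data known. A gene counts as next to a domain where its TSS is the protein-coding TSS nearest to the domain's centre. Of all 21827 protein-coding genes, 2863 (13.1%) were next to at least 1, and 15351 (70.3%) were next to at least 1 progenitor domain at least 150 bp wide. Of the ventral neural tube progenitor factors 12 of 13 were, with 27 domains, and of the motor neuron genes 11 of 16, with 17 domains. The retinoic acid pathway had 10 of 22 genes with 20 domains and the Hedgehog pathway 7 of 14 with 13. The proneural and Notch genes had 8 of 20 with 17. The median number of domains per gene over all protein-coding genes was 0. A gene with a long gap around it has more sequence nearest to it, and gap length was not adjusted for.

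The lists for other regions were also next to kept new domains. Dorsal neural tube and crest factors had 10 of 16 genes (18 domains), forebrain and midbrain factors 8 of 16 (11 domains), and mesoderm and endoderm factors 3 of 20 (4 domains). None of 19 pluripotency genes had one, although 20 new progenitor domains were nearest to these genes. With any kept new domain within 100 kb of the TSS counted instead, 3 of the 19 had one. None of 24 genes of Hox paralog groups 6 to 13 was nearest to one either, with 4 new domains nearest to them, whereas 22 had one within 100 kb. For the pluripotency list 0 of the 20 nearest new domains were kept, with a Wilson upper limit of 16.1%, beside 29.6% of all new domains. This limit takes the domains as independent, although several share a gene, such as the 5 nearest to Tbx3. Being kept is also part of the rule, so this difference is a description and was not tested.

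For the other lists named here, the counting interval of the kept share of the nearest new domains included the share of all new domains. Of the new domains nearest to ventral progenitor factors 39.7% (28.9 to 51.6) were in all 4 day 4 lists, of those nearest to proneural and Notch genes 40.5% (27.0 to 55.5), of those nearest to motor neuron genes 39.5% (26.4 to 54.4), and of those nearest to Hox paralog groups 1 to 5 46.4% (29.5 to 64.2). For the retinoic acid pathway it was 33.3% (22.7 to 45.9) and for the Hedgehog pathway 35.1% (21.8 to 51.2). All of these intervals contain 29.6%, the share over all new domains.

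**Figure D3:**
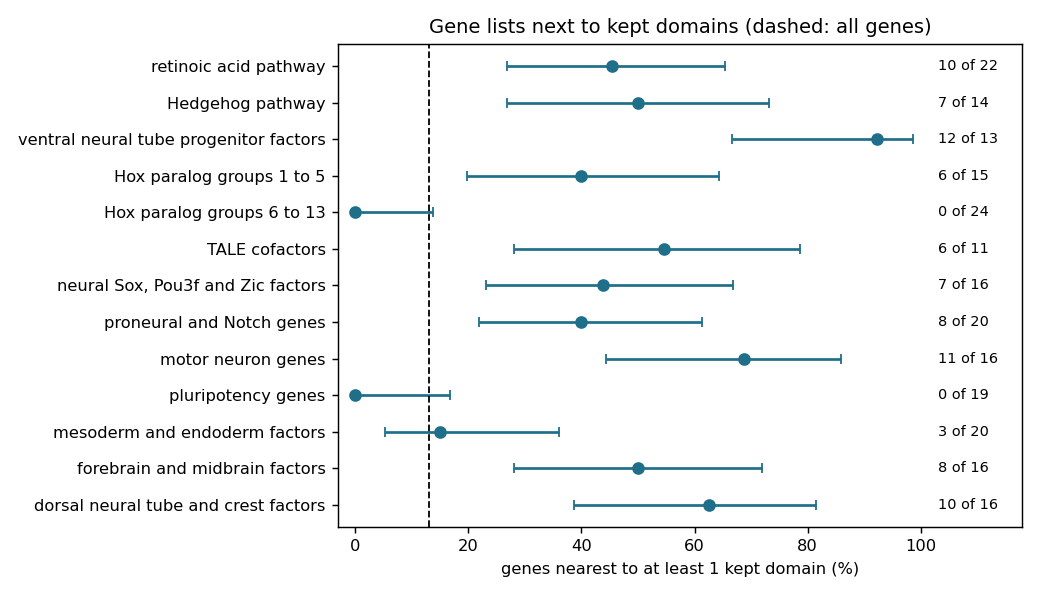
Percentage of the genes of each list that are nearest to at least 1 kept new domain, with 95% Wilson intervals for counting and the number of genes at the right. The dashed line marks all protein-coding genes, at 13.1%. Ventral progenitor factors stand at 12 of 13, and the lists for pluripotency and for Hox paralog groups 6 to 13 at 0.

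Among the genes of the RA pathway, the domain nearest to Rarb, which encodes an RA receptor, was 1184 bp wide in progenitors, 1518 bp without Dox, 1185 bp in iHoxc6, 853 bp in iHoxc9 and 1178 bp in iHoxc10. It lay in an intron, 158 kb from the nearest Rarb TSS, and 4 kept new domains were nearest to this gene. At Rara, another receptor, the widths were 1099, 1299, 1493, 889 and 1372 bp in the same order. Both receptor domains stayed wide in every list. The domain 4.57 kb from the TSS of Cyp26a1, an enzyme that degrades RA, was much smaller. It was 290 bp wide in progenitors and 227, 120, 73 and 129 bp in the no Dox, iHoxc6, iHoxc9 and iHoxc10 lists, and it lay over coding sequence of the neighbouring Cyp26c1. That of Cyp26b1, a related enzyme, measured 299, 295, 162, 54 and 313 bp, and that of Dhrs3, a retinaldehyde reductase, 732, 971, 580, 383 and 296 bp.

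In the Hedgehog pathway, the domain in an intron of Ptch1, the Hedgehog receptor and a target of the pathway, measured 638 bp in progenitors, 890 bp without Dox, 747 bp in iHoxc6, 769 bp in iHoxc9 and 977 bp in iHoxc10. It was wider than at day 2 in every day 4 list. The domain in Gli3, the pathway's main repressor, measured 562 and 900 bp in progenitors and without Dox and only 185, 182 and 260 bp in the induced lists. That in Hhip, a Hedgehog-binding inhibitor, measured 368, 738, 309, 313 and 419 bp. No kept new domain was nearest to Gli1, an activator and target of the pathway.

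Of the ventral progenitor factors, Olig2, which specifies motor neuron progenitors, had its domain 32.4 kb from the TSS, with widths of 1349 bp in progenitors, 1464 bp without Dox, 1280 bp in iHoxc6, 1057 bp in iHoxc9 and 1313 bp in iHoxc10. This domain, whose GLI match is printed above, was at least 1057 bp wide in every list. The domain in Nkx2-2, a factor of the ventral interneuron domain, measured 1081, 871, 997, 470 and 738 bp, and that of Foxa2, the floor plate factor, 560, 297, 351, 120 and 145 bp. Neither was wider at day 4 in any list. The domain in Pax6, a factor of progenitors dorsal to Nkx2-2, measured 1170 bp in progenitors and 920, 754, 320 and 667 bp at day 4. Nkx6-1, a ventral factor of motor neuron progenitors, was nearest to 7 kept new domains, of which the one closest to its TSS measured 439, 324, 299, 243 and 484 bp. That of Irx3, a factor of progenitors dorsal to this domain, measured 498, 670, 657, 56 and 451 bp.

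Neural Sox and Pou3f genes had 7 of 16 genes with 24 kept new domains. Sox2, a factor of neural progenitors, and Pou3f2, a neural POU factor, were each nearest to 7. The Sox2 domain closest to the TSS measured 361 bp in progenitors, 337 bp without Dox, 49 bp in iHoxc6, 41 bp in iHoxc9 and 541 bp in iHoxc10. The Pou3f2 domain closest to the TSS measured 228, 1082, 876, 1072 and 113 bp in the same order. The low list was thus a different one for each gene. The domain 224 kb from Sox11, a factor of new neurons, measured 629, 920, 672, 550 and 641 bp. No kept new domain was nearest to Sox1, Sox3 or Zic1.

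Among the motor neuron genes, the domain nearest to Isl1, a determinant of motor neurons, lay 188 kb from its TSS and was 203 bp wide in progenitors and 655, 546, 323 and 544 bp in the no Dox, iHoxc6, iHoxc9 and iHoxc10 lists. That of Lhx3, its partner in motor neuron specification, lay 37.4 kb from the TSS and was 241 bp in progenitors and 591, 488, 389 and 565 bp. Both were wider than in progenitors in every day 4 list and were covered along their whole length in iHoxc9 and iHoxc10. Over the 17 domains of this list the median width was 262 bp in progenitors and 655, 522, 286 and 433 bp at day 4, and over the 27 domains of the ventral list 586 bp and then 585, 552, 320 and 538 bp, beside 390 bp and 509, 428, 264 and 357 bp for all 4563. The 24 domains of the neural Sox, Pou3f and Zic list went from 377.5 bp to 858 bp without Dox and the 4 of the mesoderm and endoderm list from 215 bp to 618.5 bp. No kept new domain was nearest to Mnx1, another motor neuron factor, or to the proneural gene Neurog2.

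**Figure D4:**
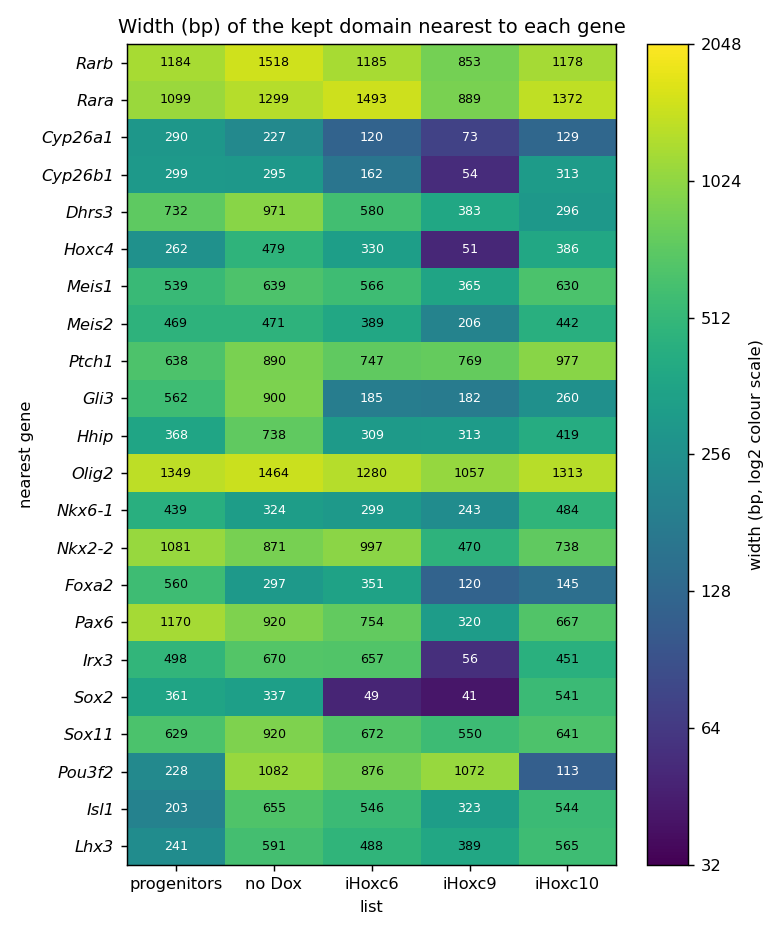
Width in bp of the kept new domain nearest to each named gene, in progenitors and the 4 day 4 lists, with colour on a log2 scale. Each cell is 1 list, without replicates. The domains of Isl1 and Lhx3 were narrowest in progenitors, and those of Rarb, Rara and Olig2 were among the widest in every list.

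The Hox clusters held 11 kept new domains within 5 kb of their genes, 3 each in HoxA, HoxB and HoxD and 2 in HoxC. All lay at the end with the low paralog numbers, with Hoxa2, Hoxa4, Hoxb3, Hoxb5, Hoxc4 and Hoxd3 as the nearest Hox genes and 1 domain nearest to 5730596B20Rik inside HoxA. Of the 15 genes of paralog groups 1 to 5, 6 were next to 13 domains, since Hoxc4 was also nearest to 3 domains outside its cluster. Their median width was 470 bp in progenitors, 807 bp without Dox, 738 bp in iHoxc6, 161 bp in iHoxc9 and 575 bp in iHoxc10. The median ratio to no Dox was 0.192 in iHoxc9, against 0.553 over all 4563, and 0.731 in iHoxc10, against 0.739.

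At single domains of HoxB, HoxC and HoxD the narrowest day 4 list was iHoxc9 each time, and the order of the other lists varied. At 0.407 kb from a TSS of Hoxb3 (chr11:96344026-96344326, overlapping a UTR of Hoxb3) the domain measured 301 bp in progenitors, 868 bp without Dox, 754 bp in iHoxc6, 42 bp in iHoxc9 and 614 bp in iHoxc10. In an intron of Hoxc4 (chr15:103030184-103030445) it measured 262, 479, 330, 51 and 386 bp. In an intron of Hoxd3 (chr2:74740502-74741998) the domain with the only direct repeat of RAR sites at a gap of 5 bases among the 11 measured 1497, 1115, 547, 434 and 1011 bp. In HoxA, iHoxc9 was the narrowest list at the domain nearest to Hoxa4 and not at the other two. The domain nearest to Hoxa2 (chr6:52165954-52166972) measured 1019 bp in progenitors, 649 bp without Dox and only 46, 53 and 42 bp in the induced lists, and the one at chr6:52177031-52177296 measured 266, 389, 130, 368 and 469 bp, with iHoxc6 as its lowest list.

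The TALE cofactors of the Hox proteins had 6 of 11 genes with 14 kept new domains, 6 of them nearest to Meis1. The Meis1 domain closest to the TSS, in an intron, measured 539 bp in progenitors, 639 bp without Dox, 566 bp in iHoxc6, 365 bp in iHoxc9 and 630 bp in iHoxc10. That of Meis2, 0.449 kb from the TSS, measured 469, 471, 389, 206 and 442 bp. In both iHoxc9 was the narrowest list.

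Motif matches set the kept new domains apart from other domains in ways that the rule did not use. A total of 27 motifs were searched on both strands in the central 150 bp, and shares are percentages of domains with at least 1 match. Against the kept domains also in EBs, the largest excesses were for SOX (50.6% and 20.2%), the RAR site (22.6% and 10.4%), the E-box CAGATG (16.9% and 7.58%), the posterior Hox core CATAAA (11.99% and 2.92%), MEIS (15.7% and 8.35%) and the GATA factor core AGATAA (9.18% and 2.76%). The largest deficits were for the SP/KLF box GGGCGG (4.19% and 35.3%), the CTCF core AGGGGGC with its variants AGATGGC and with AGGTGGC (8.28% and 17.2%), ETS (CCGGAAG, 0.767% and 5.53%), KLF (CCCACCC, 4.78% and 9.29%), ZIC (CAGCAGG, 5.79% and 7.53%) and EBF (CCCNNGGGA, 3.11% and 4.27%). GC content and promoter position differ between these classes, and both move with the motif shares. With the comparison domains weighted to equal GC content, the difference went from 30.4 to 17.2 percentage points for SOX, from 9.07 to 3.73 for CATAAA, from 6.43 to 2.15 for GATA and from -31.1 to -5.09 for SP/KLF. The deficits of KLF and EBF turned into excesses of 0.529 and 1.12 points under this weighting, and that of ZIC went from -1.74 to -0.231. With only the domains over 1 kb from a protein-coding TSS in both classes, the difference was 21.3 points for SOX, 8.25 for the RAR site, 4.58 for CAGATG instead of 9.30, and -13.2 for SP/KLF.

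In all 41544 progenitor domains the shares were 33.4% for SOX, 15.7% for the RAR site, 5.47% for CATAAA, 10.9% for MEIS, 2.87% for PBX-Hox and 0.785% for GLI. In windows 5 kb from the kept new domains they were 29.4%, 18.4%, 11.5%, 10.9%, 2.48% and 0.636%. The kept new domains had 50.6%, 22.6%, 11.99%, 15.7%, 6.90% and 1.07%, so that CATAAA was nearly as frequent 5 kb away. RFX was in 2.61% of the domains and 0.219% of the windows 5 kb away, and CAGCTG in 16.2% and 6.10%. Direct repeats of the RAR site, with A or G allowed at its first base and G or T at the third base, at gaps of 1, 2 and 5 bases were in 25, 10 and 20 domains, or 0.548%, 0.219% and 0.438%, against 0.132%, 0.110% and 0.0438% of the windows 5 kb away. In the new domains in no day 4 list the shares of these repeats were 0.359%, 0.269% and 0.329%. In the new domains in 1, 2 and 3 lists they were 0.598%, 0.570% and 0.630% at a gap of 1 base. At a gap of 2 bases they were 0.342%, 0.608% and 0.0787%, and at a gap of 5 bases 0.854%, 0.684% and 0.748%. The repeats were thus not particular to the kept new domains. CATAAA can overlap a PBX-Hox match, and an RAR site is part of each direct repeat.

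The comparison within the new domains, between those kept in all 4 lists and the 3340 in no day 4 list, gave another order. SOX was slightly less frequent in the kept domains, with 50.6% against 53.3%, and at 0.0746 percentage points the difference was near 0 once the lost domains were weighted to equal width. The RAR site differed by 0.866 percentage points (-0.994 to 2.71) and GLI by -0.124 (-0.626 to 0.343). The E-box CAGCTG was in 16.2% (15.2 to 17.3) of the kept and 8.74% (7.83 to 9.75) of the lost domains, and the RFX motif in 2.61% (2.18 to 3.11) and 0.419% (0.250 to 0.702). These 2 motifs were singled out after their values were seen. CATAAA was in 11.99% and 7.84%, CAGATG in 16.9% and 12.04%, MEIS in 15.7% and 12.99%, PBX-Hox in 6.90% and 5.21% and the POU octamer in 3.22% and 1.95%. TEAD (CATTCC) was lower in the kept domains, with 11.4% against 14.5%.

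The shares of CAGCTG climbed with the number of day 4 lists that held a new domain, from 8.74% with 0 lists through 10.2%, 11.4% and 12.4% to 16.2% with 4. For RFX they were 0.419%, 1.20%, 1.06%, 1.57% and 2.61%. A climb from 0 to 4 lists was also seen for CAGATG (12.04% to 16.9%), MEIS (12.99% to 15.7%) and EBF (1.77% to 3.11%). SOX showed no such gradient, with 53.3%, 54.9%, 52.2%, 50.3% and 50.6%. CAGCTG is an E-box that proneural and other bHLH factors bind, and RFX factors are regulators of ciliary and neural genes.

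Kept new domains were wider than lost ones, and the motif differences were therefore also read within width classes. Of new domains of 150 to 299 bp with an RFX match, 41.3% (33.4 to 49.6) were kept in all 4 lists, against 18.02% (17.2 to 18.9) of those without. In the class of 300 to 499 bp it was 57.1% (44.9 to 68.6) against 33.1%, and at 500 bp or more 92.9% (77.4 to 98.0) against 56.1%, where only 28 domains had a match. For CAGCTG the shares were 27.8% against 17.0%, 48.3% against 31.6%, and 66.9% against 55.3%. CATAAA, too, had higher shares in each class, at 27.7% against 17.6%, 40.9% against 32.6%, and 65.5% against 55.6%. With and without a SOX match the shares lay close together, at 17.2% against 19.8%, 33.0% against 33.9% and 57.0% against 56.0%. Of the 119 kept domains with an RFX match, 22 also held CAGCTG.

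**Figure D5:**
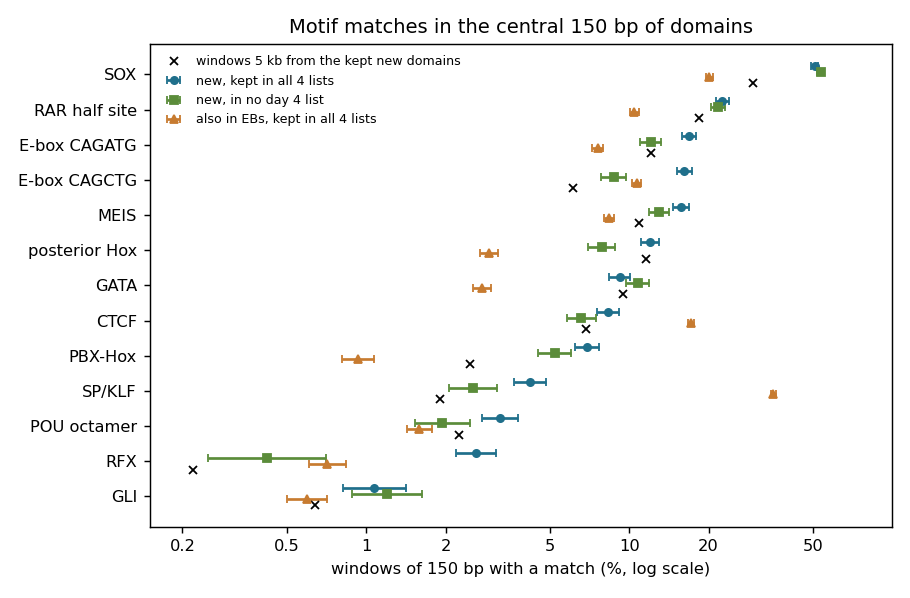
Percentage, on a log axis, of domains with a match in the central 150 bp, for kept new domains, new domains in no day 4 list and kept domains also in EBs, with 95% Wilson intervals for counting. Crosses mark windows 5 kb from the kept new domains. SOX stands at 50.6% and 53.3% in the new domains kept in all and in none of the lists, while CAGCTG (16.2% and 8.74%) and RFX (2.61% and 0.419%) are more frequent in the kept ones.

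The posterior Hox core CATAAA went with keeping in the lists of the posterior factors. Of the 1405 new domains with a match, iHoxc9 held 49.7% (47.1 to 52.3), against 37.3% (36.5 to 38.1) of those without, and iHoxc10 held 53.9% (51.3 to 56.5) against 43.3% (42.5 to 44.2). In the other lists the shares lay close together, with 68.5% (65.99 to 70.8) against 65.6% (64.8 to 66.4) in iHoxc6 and 70.0% (67.5 to 72.3) against 68.5% (67.7 to 69.2) without Dox. CAGCTG went with differences of similar size in iHoxc9 (48.8% against 37.0%) and iHoxc10 (52.6% against 43.1%). Unlike CATAAA, it did so in iHoxc6 (74.3% against 64.7%) and without Dox (75.7% against 67.6%) too. These shares were not adjusted for width or GC content, and how far the lists differ in this respect was not tested. Hoxc9 and Hoxc10 belong to the posterior group of Hox factors, and Hoxc6 to the central group. Whether these factors were bound at the matches was not tested.

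Among the kept new domains, the 547 with CATAAA also lost less width in iHoxc9. Their median ratio to the progenitor width there was 0.850 (quartiles 0.464 and 1.25), against 0.655 (0.322 and 1.02) for the other 4016. In iHoxc10 it was 0.944 against 0.880, in iHoxc6 1.01 against 1.03 and without Dox 1.14 against 1.17. Their median progenitor width was 365 bp against 393 bp. The quartiles overlap widely, so this describes the middle of both groups and not each domain. A higher ratio in iHoxc9 was not particular to CATAAA. It was also seen with the POU octamer (0.801 against 0.677), CAGCTG and RFX, whereas GLI (0.582 against 0.680) and KLF went with lower ratios. With SOX the ratios lay close together, at 0.675 against 0.689. Median progenitor widths were 344 against 392 bp for POU, 343 against 399 bp for CAGCTG and 313 against 392 bp for RFX. They were 383 against 390 bp for GLI and 432.5 against 388 bp for KLF. The part of the progenitor width in these ratios was not tested. PBX-Hox matches went with 48.8% (45.6 to 52.1) against 37.8% (37.0 to 38.6) held in iHoxc9, and with 48.6% against 44.0% in iHoxc10. RFX, in contrast, went with higher shares in every list, from 87.3% against 68.3% without Dox to 62.4% against 38.04% in iHoxc9.

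The genes nearest to the most kept new domains were Zfp608, a zinc finger gene, with 16, Nr2f1, an orphan nuclear receptor of neural development, and Ptprd, a receptor phosphatase of synapses, with 11 each, and Efnb2, an ephrin ligand, Khdrbs3, an RNA-binding splicing factor, and Nrxn3, a neurexin, with 10 each. Stxbp6, a SNARE-binding gene, and Ubash3b, a phosphatase gene, followed with 9. Cdh2, the neural cadherin, Dcc, the netrin receptor, Kif16b, a kinesin, and Tenm3, a teneurin, had 8 each. For scale, the stretch of genome nearest to Zfp608 was 1269 kb long and held 12.6 kept new domains per Mb, that of Ubash3b 599 kb with 15.02 per Mb and that of Tenm3 2760 kb with 2.90 per Mb, beside 1.67 per Mb over the genome. Most of the 2863 genes were next to few: 1918 had 1 domain, 557 had 2 and 209 had 3.

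Counting neighbours at most 10 kb apart, 521 (11.4%) of the kept new domains were in runs of at least 2. The 26 runs of at least 3 held 83 (1.82%). These shares were not worked out for other domains or for scattered positions. Whether the kept new domains stood closer together than those was therefore not tested. The run with the most domains, at chr7:62407928-62423622, had 5 nearest to Mkrn3, an imprinted gene. Their summed widths were 1570 bp in progenitors, 6121 bp without Dox, 2591 bp in iHoxc6, 1089 bp in iHoxc9 and 1646 bp in iHoxc10. Runs of 4 lay within Slit3, a guidance ligand (chr11:35523855-35544650), near Ubash3b (chr9:41365277-41378992) and at Tle3, a Groucho corepressor (chr9:61368628-61378614). The first of the runs of 3 was at chr1:43358286-43366722, near Nck2, an adaptor gene, with summed widths of 2245, 2431, 2378, 1259 and 2253 bp. Such sums add the widths given to each member, so a day 4 domain shared by several members can count more than once.

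The widest kept new domain, at chr2:137704835-137707264, measured 2430 bp in progenitors, 2419 bp without Dox, 2552 bp in iHoxc6, 1707 bp in iHoxc9 and 2007 bp in iHoxc10, and lay 551 kb from the nearest coding TSS, that of Btbd3, in an intron of Gm14064. The next, inside the run near Nck2 (chr1:43360172-43362012), measured 1841, 1874, 1843, 915 and 1810 bp. The third, at chr4:71484113-71485923, measured 1811, 1492, 1281, 1676 and 1959 bp, and the one at chr19:21165686-21167450, 106 kb from Zfand5, 1765, 2093, 1773, 724 and 961 bp. The fifth, at chr13:78871231-78872924, 672 kb from Nr2f1, measured 1694, 2030, 1820, 1607 and 2070 bp. The nearest EB domain was at least 7.98 kb away from each of these 5, and iHoxc9 was the narrowest list at 4 of them.

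As a check of the stage labels, domains within 1 kb of the TSS were counted for marker genes. The EB list had 2 at Pou5f1 and 1 at Nanog, the pluripotency factors, and the other lists had 0. Olig2, Nkx6-1, Pax6, Isl1, Mnx1 and Lhx3 had 1 to 6 in every list, EBs included, so their promoters did not separate the stages.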

How the data were processed

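Accessibility was profiled by ATAC-seq in 12 samples of 6 groups. By the methods of the study and the labels, reads were mapped to mm10 with Bowtie2 2.2.2 and domains were called with DomainFinder, whose settings are not given in the sources used here. Picard 2.8.2 is named without a role. The deposited lists hold coordinates in bp, made by the authors from both replicates together, with no count, signal or score per domain that was used. The no Dox list has additional constant columns and a name that carries another day than its label, and the label was used. Domains on mitochondrial and unplaced sequences were left out.

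Starts were read as in BED and are printed counting from 1, so positions are uncertain by 1 bp. Genes came from GENCODE M21 and sequence from GRCm38.p6, the build of the lists. Computations used Python 3.11.15, NumPy 2.4.6, pandas 2.3.3, samtools 1.23.1 and pysam 0.24.0, and plots Matplotlib 3.10.9. Shares have 95% Wilson intervals. Overlap, interval and motif code was checked on simulated data. Named are genes of a list of 33 pathway genes with their nearest member, the genes with the most members, the 5 largest runs, the 5 widest members, and motifs with the 6 largest differences from kept EB-shared domains in each direction beside RAR, GLI, SOX, POU, Hox, PBX and MEIS motifs. Members, gene lists and motifs were chosen with earlier results of these data known. Alternatives varied the minimum width, the overlap, the EB distance, the no Dox list, the promoter definition and GC weighting. Weighting of the lost new domains by GC content and by width was added after seeing the data. Some items of these lists are not reported here.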

Additional observations from a re-analysis of the deposited data

How the results depend on the processing

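The number of kept new domains (4563) fell to 2260 when every day 4 list had to cover 50% of the domain, and stayed within 1.5 times the reported number under the other alternatives, from 3072 at a minimum width of 300 bp to 5060 at 100 bp. The share of new domains kept in all 4 lists (29.6%) was 26.4% at a minimum width of 100 bp, 33.0% at 200 bp, 41.9% at 300 bp, 14.7% with 50% coverage and 25.8% when EB and day 4 domains had to be at least 50 bp wide. Without the no Dox list it was 30.2%, with 4653 domains. The promoter share (4.51%) was 5.32% with EB and day 4 domains of at least 50 bp, 11.0% with a TSS within 5 kb and 8.09% with the TSS of all annotated genes. When the domains also in EBs were weighted to equal GC content, the difference in motif share reversed for the POU octamer (from 1.63 to -0.697 percentage points), KLF (from -4.51 to 0.529) and EBF (from -1.16 to 1.12). Of the other motif differences, 19 moved beyond their intervals and 5 did not. Among the 19, NFY (CCAAT) went from 0.756 (-0.451 to 2.01) to -3.77 percentage points. Onecut (ATCGAT) went from 0.215 (-0.00115 to 0.502) to -0.0508, so these also changed sign, from differences whose intervals included 0. With only domains over 1 kb from a TSS, 21 of the 27 moved beyond their intervals, among them CTCF (from -8.87 to -11.9) and ZIC (from -1.74 to -4.14). Against the new domains in no day 4 list, weighting to equal width turned the difference for SOX from -2.73 to 0.0746 percentage points and that for RFX from 2.19 to 2.46. CAGCTG went from 7.45 to 9.59 under width weighting and 5.89 under GC weighting. Counting any member within 100 kb changed the Hox lists most, from 6 to 15 genes of paralog groups 1 to 5 and from 0 to 22 of groups 6 to 13, and gave 3 pluripotency genes in place of 0. The cause of these changes was not tested.

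No paired analysis was possible because each list pools both replicates, and for the same reason leaving out a replicate could not be run. Read depth is unknown, so a closed domain and one that was not detected cannot be told apart.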
